A study of Mus musculus with 11 samples.

Results

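The Cyp4a and Cyp4f omega-hydroxylases measured here are 9 of the 36788 genes in the liver RNA-seq table. They were taken by symbol, from a list chosen with earlier results of these data known. They are Cyp4a10, Cyp4a12a, Cyp4a12b, Cyp4a14, Cyp4a31 and Cyp4a32 of the Cyp4a subfamily, Cyp4f14 and Cyp4f15 of the Cyp4f subfamily, and Cyp4v3. Livers came from wild-type C57BL/6 female mice over 12 weeks of age that had all been ovariectomized (OVX) and fed a high-fat diet (HFD). 5 mice received follicle-stimulating hormone (FSH), the pituitary gonadotropin, and 6 received saline, so ovariectomy and the diet were shared by both groups. The comparison asks how the liver transcriptome of OVX/HFD females differs under FSH. FSH-treated mice are numbered 1, 2, 3, 4 and 6 in the labels, and saline-treated mice 1 to 6.

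Cyp4 enzymes are cytochromes P450 of the endoplasmic reticulum that hydroxylate fatty acids at the terminal, or omega, carbon. The omega-hydroxy acids are oxidized by alcohol and aldehyde dehydrogenases to dicarboxylic acids, which are shortened in peroxisomes. In mouse liver, Cyp4a10 and Cyp4a14 are classical targets of the nuclear receptor PPARα, Cyp4a12a is a male-predominant gene, and Cyp4f enzymes also act on leukotrienes and other eicosanoids.

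The 6 Cyp4a genes lie in 1 cluster on chromosome 4 of GRCm38. In the GENCODE M21 annotation they are Cyp4a12a (chr4:115299046-115332815, plus strand), Cyp4a12b (chr4:115411624-115439034, plus strand), Cyp4a14 (chr4:115486200-115496142, minus strand), Cyp4a10 (chr4:115518264-115533649, plus strand), Cyp4a31 (chr4:115563649-115579015, plus strand) and Cyp4a32 (chr4:115600969-115621602, plus strand). Cyp4f15 (chr17:32685627-32703352, plus strand) and Cyp4f14 (chr17:32905070-32917342, minus strand) lie on chromosome 17. Cyp4v3 lies on chromosome 8 (chr8:45304944-45333216, minus strand) and overlaps exons of the predicted gene Gm45753 on the same strand.

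The coding sequences show how closely the members are related and which reads could be assigned to more than 1 of them. The stretch that encodes the heme-binding signature of cytochromes P450 was found in all 9 genes by a motif search of the annotated coding sequence. It is shown with the codon of the heme-ligating cysteine in capitals, and it crosses an exon junction in each gene, so the positions given include an intron.
Cyp4a10 (chr4:115529502-115532543, plus strand): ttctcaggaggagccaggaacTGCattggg
Cyp4a12a (chr4:115328986-115331846, plus strand): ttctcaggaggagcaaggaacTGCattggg
Cyp4a12b (chr4:115435240-115438069, plus strand): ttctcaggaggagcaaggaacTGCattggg
Cyp4a14 (chr4:115487299-115489805, minus strand): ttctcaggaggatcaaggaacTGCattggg
Cyp4a31 (chr4:115574950-115577948, plus strand): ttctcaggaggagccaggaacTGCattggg
Cyp4a32 (chr4:115614880-115621446, plus strand): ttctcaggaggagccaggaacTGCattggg
Cyp4f14 (chr17:32905666-32906065, minus strand): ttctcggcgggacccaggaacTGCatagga
Cyp4f15 (chr17:32702398-32702801, plus strand): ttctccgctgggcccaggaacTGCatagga
Cyp4v3 (chr8:45307107-45308407, minus strand): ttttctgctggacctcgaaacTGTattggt
The 30 bases were identical in Cyp4a10, Cyp4a31 and Cyp4a32. Cyp4a12a and Cyp4a12b each differed from Cyp4a10 at 1 position and Cyp4a14 at 2. The differences numbered 6 in Cyp4f14, 7 in Cyp4f15 and 10 in Cyp4v3.

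Over the whole coding sequence Cyp4a10 was 97.2% identical to Cyp4a32 (43 of 1527 bases differed) and 96.6% identical to Cyp4a31 (52 bases). Cyp4a12a and Cyp4a12b were 98.5% identical (23 of 1524 bases differed). Cyp4a14 was the more distant relative, with 77.6% identity to Cyp4a10, and Cyp4f14 and Cyp4f15 were 82.1% identical to each other. Cyp4v3 shared 60.6% of aligned bases with Cyp4a10.

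Reads of 100 bases can separate close relatives only where the sequences differ within a read. Among the 449 stretches of 100 coding bases that lie in a single exon of Cyp4a10, Cyp4a31 and Cyp4a32, the median number of positions at which the 3 genes were not all alike was 6. The stretch with the fewest, in exon 8, held 1 such position, in capitals.
Cyp4a10 (chr4:115525559-115525658, plus strand): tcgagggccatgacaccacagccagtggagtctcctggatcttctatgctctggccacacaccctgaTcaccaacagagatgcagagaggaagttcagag
Cyp4a31 (chr4:115571019-115571118, plus strand): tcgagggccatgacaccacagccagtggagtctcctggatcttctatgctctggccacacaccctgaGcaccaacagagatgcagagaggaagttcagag
Cyp4a32 (chr4:115611278-115611377, plus strand): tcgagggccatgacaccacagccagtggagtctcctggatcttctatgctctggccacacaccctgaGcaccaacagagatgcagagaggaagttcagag
The stretch with the most, in exon 2, held 13, also in capitals.
Cyp4a10 (chr4:115519630-115519729, plus strand): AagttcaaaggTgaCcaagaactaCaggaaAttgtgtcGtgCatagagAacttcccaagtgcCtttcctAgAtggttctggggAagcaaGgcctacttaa
Cyp4a31 (chr4:115565010-115565109, plus strand): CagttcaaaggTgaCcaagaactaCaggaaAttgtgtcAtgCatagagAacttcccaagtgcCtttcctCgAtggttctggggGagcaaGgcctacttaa
Cyp4a32 (chr4:115602260-115602359, plus strand): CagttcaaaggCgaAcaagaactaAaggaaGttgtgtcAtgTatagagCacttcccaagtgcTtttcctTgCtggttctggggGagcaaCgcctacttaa
Of all windows of 100 bases along the annotated transcripts, 12.7% of those of Cyp4a10 were found unchanged in Cyp4a31 or Cyp4a32. The shares were 8.22% for Cyp4a31 and 20.1% for Cyp4a32. Cyp4a12a and Cyp4a12b had 35.8% and 36.2% of their windows in common with each other, Cyp4v3 had 5.77% in common with Gm45753, and Cyp4a14, Cyp4f14 and Cyp4f15 had 0. The submitters' processing notes name RSEM, which can divide reads among relatives, but how such reads were counted in this table is not stated, so values of Cyp4a31, Cyp4a32, Cyp4a12a and Cyp4a12b are uncertain.

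The deposited values are CPM, the reads counted on a gene per 1000000 counted in the library, and whole reads could be recovered for 100% of them. Libraries held between 10801891 and 19909327 reads, and 3 reads, set here as the limit of detection, correspond to 0.151 to 0.278 CPM. Each library is taken as 1 mouse, which the labels do not state, and p-values set group differences against the spread between these libraries. The summed CPM of 10 hepatocyte markers, to which Alb contributes most, was 110939 to 129568 in FSH livers and 110074 to 135488 in saline livers. Of the kidney proximal tubule markers, another site of Cyp4a expression, Kap, Slc5a12 and Umod were at 0 in every library, and the summed level of all 6 was at most 1.11 CPM. In bulk tissue, fewer cells of a type and less RNA per cell cannot be told apart.

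The library of FSH-treated mouse 2 differed from the other 4 FSH livers in sex-biased liver genes. Over all genes tested it did not stand apart on the first principal component (31.0% of the variance). It lay at -26.6 there, and the other 4 ran from -28.8 to -7.93. Of 19 male-biased liver genes in the table it had the highest value of the FSH group in 15, and of 18 female-biased genes the lowest in 10. Slco1a1, a male-biased organic anion transporter, stood at 174 CPM in this library and at 3.88 to 44.7 in the other 10 libraries, and Sult2a1, a female-biased sulfotransferase, at 3.47 CPM against 77.1 to 521. These genes were singled out after their values were seen. The values of each tested member, and the counts of the gene lists, are therefore given with and without this library. It was also the highest FSH liver for Cyp4a10, Cyp4a14, Cyp4a31, Cyp4a32, Cyp4f14 and Cyp4v3. Leaving it out therefore lowers the FSH means of these genes. Since the library was singled out from these same data, p-values without it are given as description only.

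Cyp4a10 and Cyp4a14 were the most abundant members per length and had the largest differences between FSH and saline livers among the 7 members tested. Cyp4a10 was 43.4% lower in FSH livers in limma's test, and Cyp4a14, with a difference of similar size, missed the threshold. Cyp4a31, Cyp4a32, Cyp4f14, Cyp4f15 and Cyp4v3 did not pass, and Cyp4a12a and Cyp4a12b fell below the mean of 0.5 CPM set for testing. At an adjusted p under 0.05, 1 of the 7 was called, lower with FSH, where 10.6% of all 12733 genes tested were called and 4.41% were called lower. With an absolute log2 fold change over 1 as a further condition, 0 of the 7 passed (limma), against 1.83% of all genes. edgeR, DESeq2 and voom also called 0 on both conditions, and 2 of the 7 members had an unadjusted p under 0.05, where 25.1% of all genes did. The groups did not overlap in 0 of the 7, against 6.67% of all genes. The median log2 fold change over the 7 was -0.18, beside 0.02 over all genes tested.

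**Figure D1:**
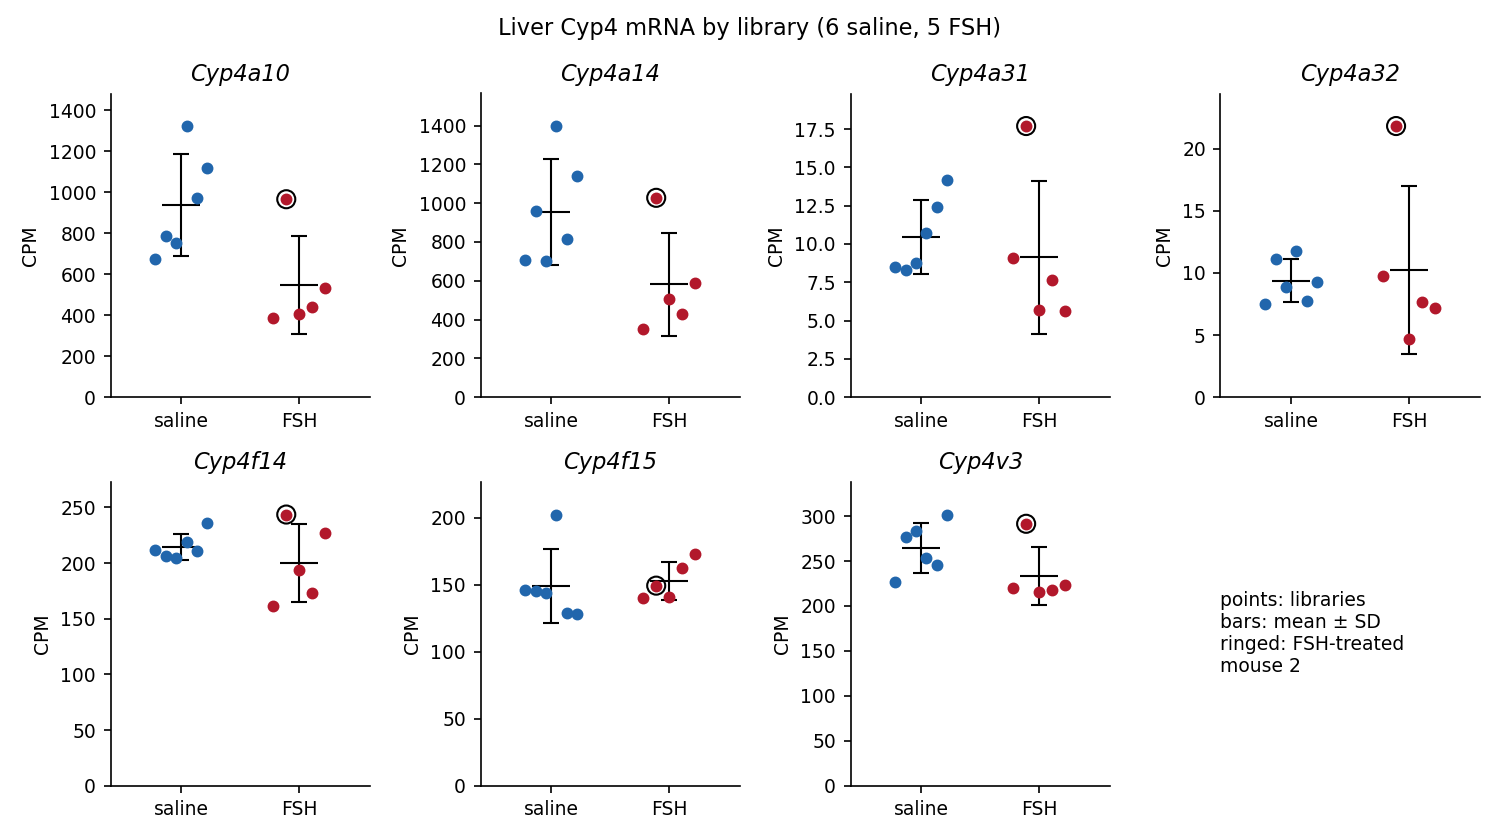
CPM (vertical axes, from 0, a scale for each gene) of the 7 tested members in 6 saline and 5 FSH livers. Points are libraries, bars are mean ± SD, and the ring marks FSH-treated mouse 2, which stood at 965 CPM for Cyp4a10 while the other 4 FSH livers were between 388 and 534.

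Cyp4a10 encodes a fatty acid omega-hydroxylase that is strongly induced by PPARα agonists and by fasting. Its CPM in FSH-treated mice 1, 2, 3, 4 and 6 were 388, 965, 408, 442 and 534. Saline livers ranged from 673 to 1322 CPM with a median of 879. Of the 5 FSH livers, 4 lay below all 6 saline livers, and FSH-treated mouse 2 lay inside the saline range. The means were 547 ± 240 CPM (SD, n = 5) and 936 ± 249 CPM (SD, n = 6). The log2 fold change was -0.82 ± 0.22 (SE; 95% interval -1.30 to -0.34, adjusted p = 0.0301 by limma). An exact permutation test over all 462 assignments of libraries to groups gave a two-sided p of 0.0216, where the smallest p possible was 0.00433.

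Without FSH-treated mouse 2, the highest FSH liver for this gene, the log2 fold change of Cyp4a10 was -1.05 (adjusted p = 0.00198 by limma). Leaving out FSH-treated mouse 1, 3 or 4 raised the adjusted p by limma to 0.09, 0.0816 and 0.073, above the threshold. So did leaving out mouse 4, 5 or 6 of the saline group (0.0597, 0.0532 and 0.0575). The direction was lower in each of these fits. Markers of liver cell types also moved between the groups, where 10.6% of all genes tested were called and 4.41% were called lower. Of the 10 hepatocyte markers 7 were lower with FSH (median -0.18 on the log2 scale), and Fgb (-0.38, adjusted p = 0.0289 by limma) and Hnf4a (-0.44, adjusted p = 0.0369 by limma) passed. Both differences were nearly as large without FSH-treated mouse 2 but missed the threshold (Fgb -0.35 and Hnf4a -0.44, adjusted p = 0.0598 and 0.0683 by limma), which left 0 of the 10 called. All 6 Kupffer cell markers were lower (median -0.47, summed level 69.4 to 186 CPM in FSH livers and 114 to 223 CPM in saline livers), of which Cd68 passed (-0.78, adjusted p = 0.0118 by limma). All 6 stellate cell markers were lower (median -0.26, 204 to 279 against 242 to 322 CPM) with 0 past the threshold in limma, and of 5 endothelial markers 4 were lower (median -0.13, 109 to 162 against 126 to 151 CPM), of which Lyve1 passed (-0.63, adjusted p = 0.0121 by limma). Of 5 cholangiocyte markers tested 4 were higher (median 0.28, summed level of all 6 listed 48.2 to 69.5 against 38.3 to 55.7 CPM), of which Krt7 passed (0.69, adjusted p = 0.00731 by limma). Without mouse 2 the number called was again 1 for Kupffer, 1 for endothelial, 1 for cholangiocyte and 0 for stellate markers. The part of these shifts in the values of Cyp4a10 and Cyp4a14 was not tested.

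Cyp4a14, the other PPARα-inducible omega-hydroxylase of the cluster, is known to be higher in female than in male mouse liver. FSH-treated mice 1, 2, 3, 4 and 6 had 351, 1027, 508, 427 and 590.2 CPM. Saline livers ranged from 704 to 1397 CPM with a median of 887. As for Cyp4a10, 4 of 5 FSH livers lay below all saline livers and mouse 2 lay among them. The means were 581 ± 265 CPM (SD, n = 5) and 953 ± 273 CPM (SD, n = 6). The log2 fold change was -0.77 ± 0.24 (SE; 95% interval -1.29 to -0.26), with an adjusted p of 0.0542 by limma, just above the threshold, and a two-sided exact permutation p of 0.0390. Without FSH-treated mouse 2 the log2 fold change was -1.003 and the adjusted p by limma 0.00559. As given above, Cyp4a14 shared no window of 100 bases with another gene.

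The difference was of similar size in Cyp4a10 and Cyp4a14. The ratio of Cyp4a14 to Cyp4a10 CPM was 1.06 ± 0.13 (SD, n = 5) in FSH livers and 1.02 ± 0.13 (SD, n = 6) in saline livers. This ratio did not differ beyond the spread between libraries (exact permutation p = 0.636, the same after adjustment over the 4 ratios tested between members), nor without FSH-treated mouse 2 (1.06 ± 0.15, SD, n = 4, exact permutation p = 0.705). With each group's mean subtracted, the log2 values of the pair had a Pearson correlation of 0.93 over the 11 libraries, which share library depth and the CPM total. The pair made up 73.8% of the summed CPM of the 9 members in saline livers and 63.5% in FSH livers (61.0% without mouse 2).

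**Figure D2:**
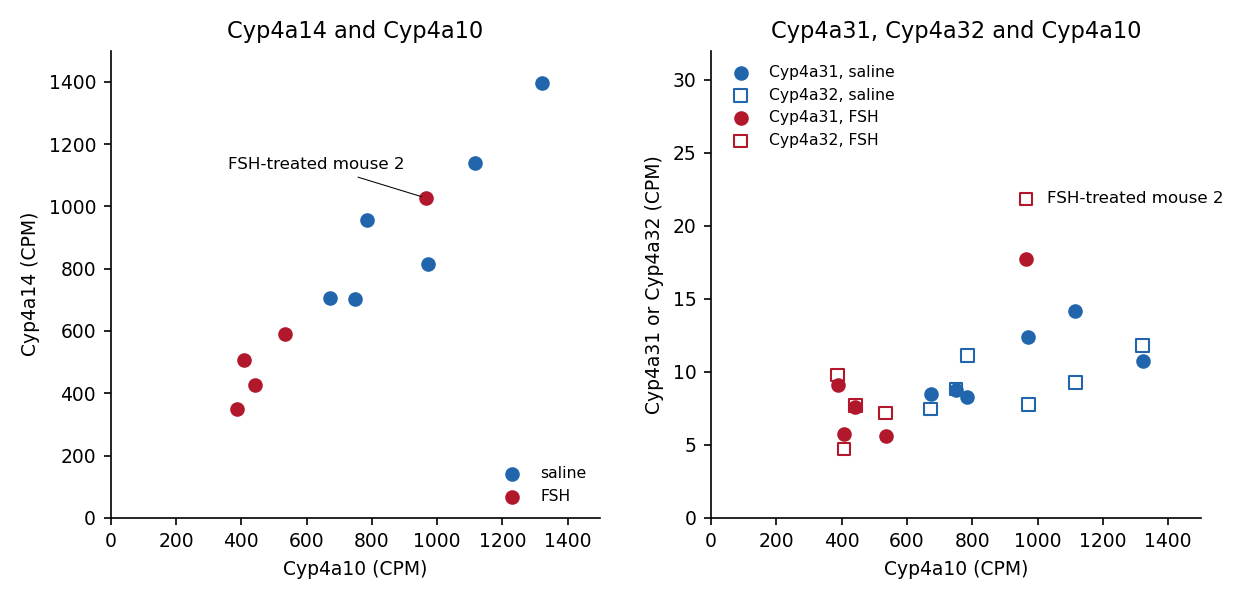
CPM of Cyp4a14 (left) and of Cyp4a31 and Cyp4a32 (right) against CPM of Cyp4a10, with a point for each library and gene, saline in blue and FSH in red. Cyp4a14 rises with Cyp4a10 across the libraries, and FSH-treated mouse 2 lies among the saline livers on the left but above every other library on the right.

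Cyp4a31 and Cyp4a32, close relatives of Cyp4a10 in the same cluster whose substrates are less well studied, were present at low levels. Cyp4a31 had 9.09, 17.7, 5.72, 7.62 and 5.61 CPM in FSH-treated mice 1, 2, 3, 4 and 6 and 8.29 to 14.2 CPM (median 9.74) in saline livers. FSH-treated mouse 2 was the highest of all 11 libraries, and 3 of the 5 FSH livers lay below all saline livers. The log2 fold change was -0.28 ± 0.24 (SE; 95% interval -0.81 to 0.24, adjusted p = 0.524 by limma).

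Cyp4a32 had 9.79, 21.8, 4.70, 7.69 and 7.19 CPM in the same FSH livers and 7.47 to 11.8 CPM (median 9.05) in saline livers. The groups overlapped, with mouse 2 again above every other library. Its log2 fold change was -0.05 ± 0.27 (SE; 95% interval -0.63 to 0.54, adjusted p = 0.943 by limma). Without FSH-treated mouse 2 the log2 fold changes were -0.54 for Cyp4a31 (adjusted p = 0.0761 by limma) and -0.36 for Cyp4a32 (adjusted p = 0.259 by limma). The direction for Cyp4a32 changed with the library left out and with the tool, so it has no stable sign in these data.

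The levels of the 2 small relatives were also set against that of Cyp4a10. Cyp4a31 amounted to 1.67% ± 0.48 (SD, n = 5) of Cyp4a10 CPM in FSH livers and 1.14% ± 0.18 (SD, n = 6) in saline livers (exact permutation p = 0.0476, adjusted p = 0.0952). Cyp4a32 amounted to 1.80% ± 0.58 in FSH livers and 1.04% ± 0.24 in saline livers (exact permutation p = 0.0260, adjusted p = 0.0952). Neither difference passed after adjustment over the 4 ratios. The shares in FSH livers without mouse 2 were 1.63% ± 0.55 and 1.69% ± 0.61 (SD, n = 4, exact permutation p = 0.105 and 0.0571). Cyp4a31 and Cyp4a32 were measured in 64 to 240 and 82 to 296 reads per library, against 6098 to 17945 reads of Cyp4a10, and the part of misassigned Cyp4a10 reads in them was not tested. When Cyp4a10, Cyp4a31 and Cyp4a32 were summed before the fit, the sum was 567 ± 251 CPM (SD, n = 5) in FSH livers and 956 ± 251 CPM (SD, n = 6) in saline livers. The log2 fold change of the sum was -0.80 ± 0.22 (SE; adjusted p = 0.0331 by limma), close to that of Cyp4a10 alone, and -1.03 without FSH-treated mouse 2 (adjusted p = 0.00202 by limma).

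Cyp4a12a, the male-predominant arachidonic acid omega-hydroxylase, was near the limit of detection in these females. It had 34 reads over all 11 libraries and 0 in 2 of them. FSH-treated mouse 2 held 11 of these reads, or 0.811 CPM, whereas FSH-treated mice 3 and 4 held 1 read each and mice 1 and 6 held 0. Saline livers held between 2 and 7 reads, or 0.145 to 0.435 CPM. Cyp4a12b had 8 reads in all and 0 in 7 of the 11 libraries, with 3 of the 8 in FSH-treated mouse 2. Neither gene reached the mean of 0.5 CPM set for testing, also not as a sum of both (0.248 CPM in FSH livers and 0.321 CPM in saline livers). With no filter beyond a read in any library, neither passed in limma (adjusted p = 0.626 for Cyp4a12a and 0.963 for Cyp4a12b), and exact permutation tests gave p = 0.346 and 1.

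Cyp4f14, which inactivates leukotriene B4 by omega-hydroxylation, was expressed at similar levels in both groups. FSH-treated mice 1, 2, 3, 4 and 6 had 161, 244, 193, 173 and 227 CPM, and saline livers had 205 to 236 CPM with a median of 211. FSH livers were more widely spread, and 3 of 5 lay below all saline livers while mouse 2 lay above them all. The means were 200 ± 35.1 CPM (SD, n = 5) and 215 ± 11.5 CPM (SD, n = 6). The log2 fold change was -0.12 ± 0.10 (SE; 95% interval -0.34 to 0.10, adjusted p = 0.530 by limma), and -0.20 without mouse 2 (adjusted p = 0.247 by limma).

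Cyp4f15, its neighbour on chromosome 17, had 139.8, 149, 141, 163 and 173 CPM in the FSH livers and 128 to 203 CPM (median 145) in the saline livers. All FSH livers lay inside the saline range. The log2 fold change was 0.05 ± 0.11 (SE; 95% interval -0.19 to 0.29, adjusted p = 0.834 by limma), 0.06 without FSH-treated mouse 2 (adjusted p = 0.835 by limma) and 0.14 without saline-treated mouse 4, the highest library at 203 CPM (adjusted p = 0.351 by limma).

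Cyp4v3 is the mouse counterpart of CYP4V2, a fatty acid omega-hydroxylase whose loss causes a crystalline disease of the human retina. It had 219.8, 291, 215, 218 and 224 CPM in the FSH livers and 227 to 302 CPM (median 265) in the saline livers. As for Cyp4a10 and Cyp4a14, 4 of 5 FSH livers lay below all saline livers, with mouse 2 inside the saline range. The difference was smaller, at a log2 fold change of -0.18 ± 0.10 (SE; 95% interval -0.40 to 0.03, adjusted p = 0.280 by limma, exact permutation p = 0.108). Without FSH-treated mouse 2 it was -0.26 (adjusted p = 0.0863 by limma).

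**Figure D3:**
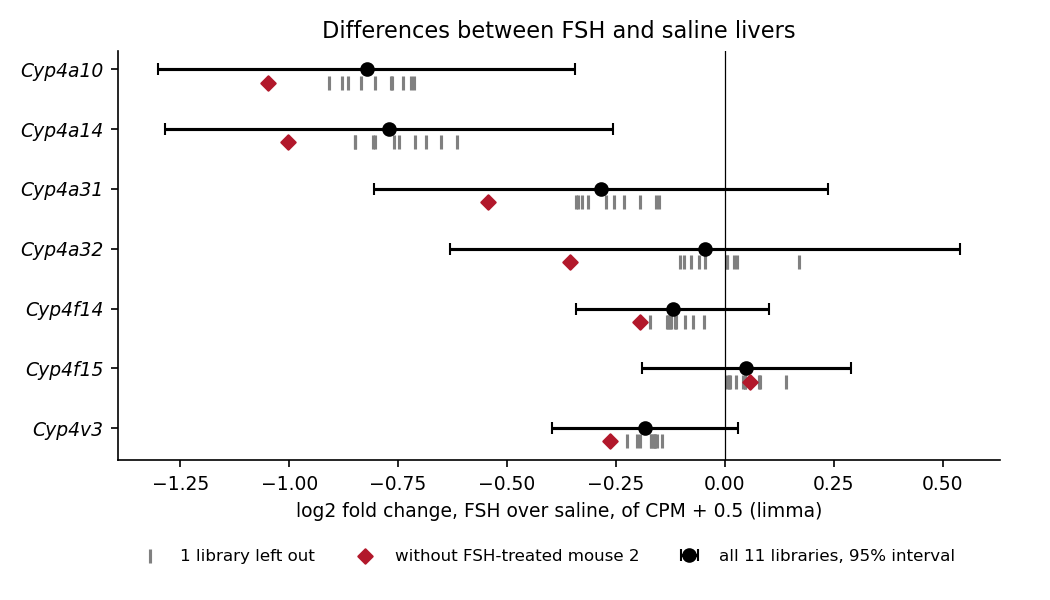
Log2 fold change (horizontal axis, FSH over saline, log2 of CPM + 0.5) of the 7 tested members. Black points with bars are limma estimates with 95% intervals, grey ticks are fits with 1 library left out, and red diamonds are fits without FSH-treated mouse 2, which reached -1.05 for Cyp4a10 and -1.003 for Cyp4a14.

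Levels of different genes were compared as CPM per kb of exonic length. In saline livers Cyp4a10 stood at 444 ± 118 (SD, n = 6) and Cyp4a14 at 367 ± 105, and Cyp4a10 was the higher of the pair in all 6 libraries. Cyp4f14 followed at 88.7 ± 4.75, then Cyp4v3 at 69.5 ± 7.20 and Cyp4f15 at 65.4 ± 12.0. Cyp4v3 exceeded Cyp4f15 in only 4 of 6 saline libraries and their means were in the other order in FSH livers (61.4 ± 8.53 and 67.1 ± 6.26), so these neighbours in the order did not differ beyond their spread. Cyp4a32 (6.11 ± 1.14) and Cyp4a31 (4.17 ± 0.97) were far lower, and Cyp4a12a (0.110) and Cyp4a12b (0.0228) lowest. In FSH livers Cyp4a10 stood at 260 ± 114 (SD, n = 5) and Cyp4a14 at 223 ± 102, still above Cyp4f14 at 82.6 ± 14.5.

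**Figure D4:**
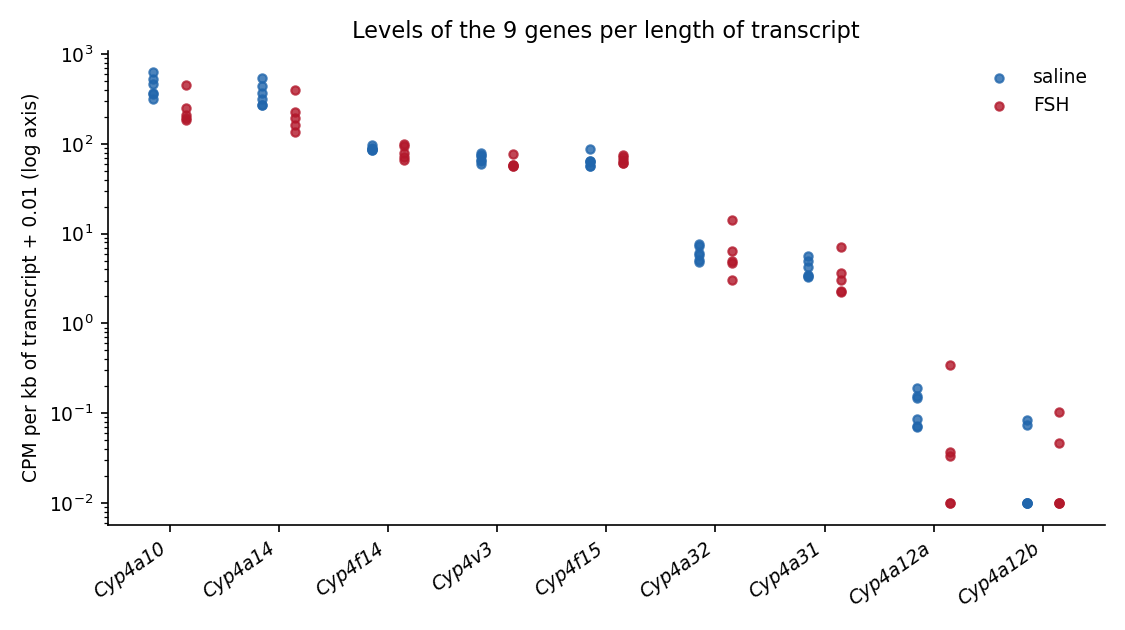
CPM per kb of exonic length plus 0.01 (log axis) of all 9 genes in each library, saline in blue and FSH in red, ordered by the saline mean. Cyp4a10 and Cyp4a14 lead, and Cyp4a12a and Cyp4a12b lie at or near 0.

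Within groups the members did not all vary together. With group means subtracted, log2 values over the 11 libraries gave Pearson correlations of 0.75 for Cyp4a31 and 0.73 for Cyp4a32 with Cyp4a10, pairs that could share reads. Correlations with Cyp4a14, which shares none, were 0.83 for Cyp4f14 and 0.65 for Cyp4v3. Cyp4f15 stood apart, at -0.22 to 0.36 with the other 6 tested members. By the same measure the genes most like Cyp4a10 were Cln3 (0.92), Hsd3b7 (0.92) and Ring1 (0.91), and those most like Cyp4a14 were Acot1 (0.90), Fignl2 (0.89) and Cables2 (0.88). Acot1, a cytosolic acyl-CoA thioesterase and PPARα target, was also the gene most like Cyp4f14 (0.89), ahead of Fbxo46 (0.88) and Paxip1 (0.87). Smpd2 (0.96), Tmem82 (0.93) and Nfkbil1 (0.93) were most like Cyp4f15, and Nat8f2 (0.96), Slc25a26 (0.94) and Csnk1g1 (0.94) most like Cyp4v3. The 11 points share depth and the CPM total, and FSH-treated mouse 2 contributes to each value.

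The other genes of the Cyp4 family moved in both directions. For the counts of this list and those that follow, 10.6% of all 12733 genes tested were called and 4.41% were called lower. Of 15 in the table, 6 were at 0 in all libraries and 5 were tested, of which 1 was higher and 1 lower at an adjusted p under 0.05 (median log2 fold change -0.24). Cyp4f16, a further Cyp4f gene, was higher at 5.37 ± 0.61 CPM (SD, n = 5) than in saline livers at 3.47 ± 0.75 CPM (SD, n = 6), and the groups did not overlap (log2 fold change 0.58, adjusted p = 0.0201 by limma). Cyp4b1, a mainly extrahepatic family member, was lower at 8.43 ± 2.00 against 12.1 ± 1.25 CPM (log2 fold change -0.53, adjusted p = 0.0287 by limma). Without FSH-treated mouse 3 or 4, Cyp4f16 missed the threshold (adjusted p = 0.0557 and 0.0547 by limma). The counts were 1 higher and 0 lower without FSH-treated mouse 2. Cyp4b1 missed the threshold when either of the mice numbered 1 or 2 was left out, with adjusted p-values by limma of 0.0706 and 0.0591 for the FSH group and 0.0558 and 0.0559 for the saline group.

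Of 4 genes listed as P450 reductase, cytochromes b5 and their reductase, which include electron donors of microsomal P450s, 2 were higher with FSH, the direction opposite to that of Cyp4a10, and 0 were lower (limma, median log2 fold change 0.55). Cyb5r3, cytochrome b5 reductase, had 935 ± 121 CPM (SD, n = 5) against 556 ± 61.6 CPM (SD, n = 6), a log2 fold change of 0.75 (adjusted p = 0.000463 by limma). Por, cytochrome P450 reductase, had 643 ± 116 against 399 ± 155 CPM, a log2 fold change of 0.76 (adjusted p = 0.0457 by limma), and it passed the threshold in 2 of the 11 fits that left out 1 library, not in the fit without FSH-treated mouse 2 (adjusted p = 0.0929 by limma), where 1 of the 4 was higher and 0 lower. For Cyb5b, an outer mitochondrial cytochrome b5, the log2 fold change was 0.36, which did not pass (adjusted p = 0.0638 by limma).

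Of 8 genes for the alcohol and aldehyde steps that follow omega-hydroxylation, 1 was called, Aldh1a1, a cytosolic aldehyde dehydrogenase (795 ± 30.7 against 1158 ± 270.2 CPM, log2 fold change -0.51, adjusted p = 0.0275 by limma). It passed in 7 of the 11 fits that left out 1 library. Log2 fold changes of 0.38 for Adh1, the major hepatic alcohol dehydrogenase, and 0.29 for Aldh9a1 did not pass (adjusted p = 0.0627 and 0.0960 by limma). The median over the 8 was 0.21. Without FSH-treated mouse 2, 1 was higher and 2 lower: Adh1 (0.45, adjusted p = 0.0340 by limma), Aldh1a1 (-0.53, adjusted p = 0.0424) and Adh4, an alcohol dehydrogenase named after its value was seen (-0.40, adjusted p = 0.0261).

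Of 16 genes for peroxisomal uptake and oxidation of dicarboxylic and long-chain acids, 2 were higher and 1 lower (median log2 fold change 0.10). Crot, which makes acylcarnitines from shortened peroxisomal products, fell from 721 ± 142 CPM (SD, n = 6) to 305 ± 44.1 CPM (SD, n = 5), a log2 fold change of -1.23 (adjusted p = 4.07e-05 by limma). Acot4, a peroxisomal succinyl-CoA and glutaryl-CoA thioesterase (log2 fold change 0.83, adjusted p = 0.000463 by limma), and Abcd3, a peroxisomal transporter that carries dicarboxylic acids (0.70, adjusted p = 0.0148 by limma), were higher. These last 2 genes were named after their values were seen. The counts were also 2 and 1 without FSH-treated mouse 2, but 4 were higher without FSH-treated mouse 6, and also with upper-quartile scaling, with array weights and in DESeq2.

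Cyp4a10 and Cyp4a14 are PPARα targets, and 10 receptors, cofactors and ligand carriers of the PPAR axis and 20 other PPARα targets were read beside them. Ppara itself was at 40.8 ± 20.53 CPM (SD, n = 5) and 38.1 ± 9.47 CPM (SD, n = 6), a log2 fold change of 0.01 (adjusted p = 0.982 by limma). FSH-treated mouse 2 had the highest Ppara of the 11 libraries at 75.8 CPM, against 22.9 to 50.6 CPM in the others. Without this library the log2 fold change of Ppara was -0.24 (adjusted p = 0.472 by limma), and its sign varied over the 11 fits that left out 1 library, from -0.24 to 0.19. Ppard, the receptor PPARδ, fell from 23.96 ± 6.65 to 6.15 ± 1.35 CPM (log2 fold change -1.86, adjusted p = 2.08e-05 by limma) and was the only 1 of the 10 called, also without mouse 2 (-1.92, adjusted p = 5.37e-05 by limma).

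Of the 20 other targets, 4 were lower, 0 were higher and 16 did not pass (limma, median log2 fold change -0.11). Over all genes tested 10.6% were called and 4.41% were called lower. Angptl4, an inhibitor of lipoprotein lipase, had the largest difference at -0.99 on the log2 scale (adjusted p = 0.0162 by limma). Cd36, a fatty acid transporter, followed at -0.79 (adjusted p = 0.0346 by limma). Acadm, a mitochondrial acyl-CoA dehydrogenase named after its value was seen, stood at -0.28 (adjusted p = 0.0369 by limma). Without FSH-treated mouse 2, 5 of the 20 were lower, among them Angptl4 and Acadm but not Cd36 (adjusted p = 0.0838 by limma). Over the 11 fits that left out 1 library, between 1 and 5 were lower and between 0 and 3 higher (3 without FSH-treated mouse 6), and Angptl4 passed in all 11, Cd36 in 4 and Acadm in 4.

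**Figure D5:**
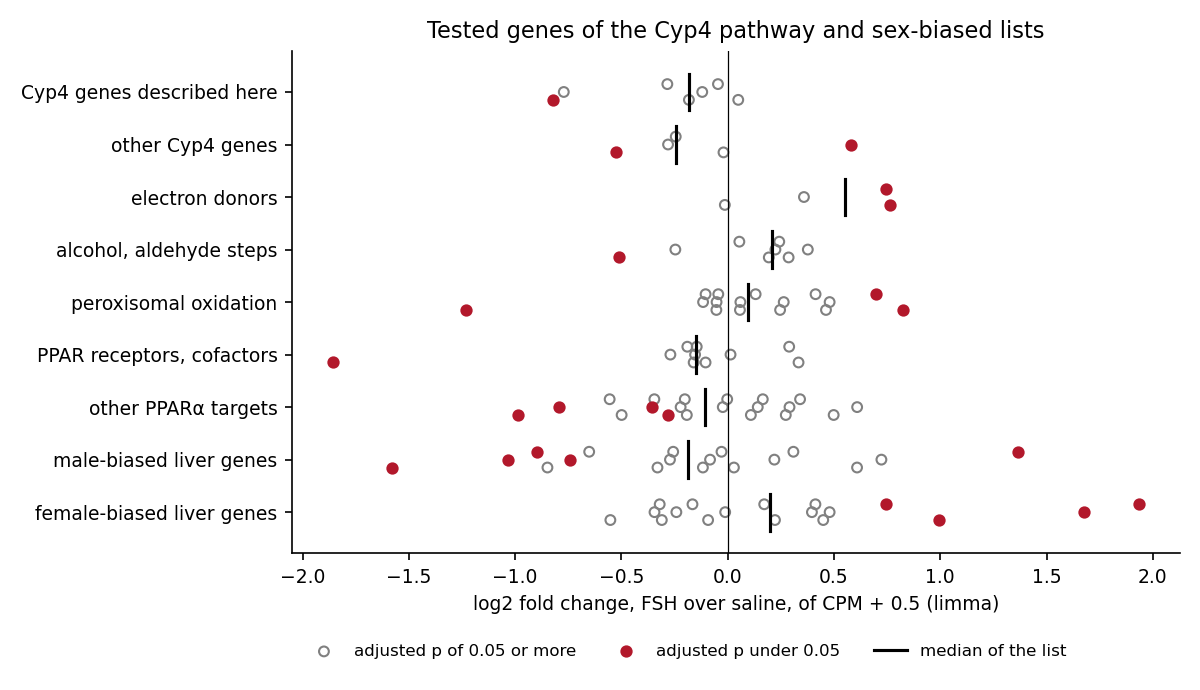
Log2 fold changes (horizontal axis, FSH over saline, log2 of CPM + 0.5) of the tested genes of 9 lists, 1 list per row. Filled points passed an adjusted p under 0.05 by limma, open points did not, and vertical bars are list medians, which lie between -0.24 for the other Cyp4 genes and 0.55 for the electron donors.

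Because Cyp4a12a and Cyp4a14 differ between the sexes in mouse liver, lists of sex-biased genes were read beside them. Of 18 male-biased genes tested, 1 was higher and 4 lower (median log2 fold change -0.19), where 4.41% of all genes tested were called lower. Elovl3, a fatty acid elongase (-1.58, adjusted p = 0.0165 by limma), and Selenbp2, a selenium-binding protein (-1.03, adjusted p = 0.00697 by limma), were lower past both thresholds, and Nudt7, a peroxisomal CoA diphosphatase (1.37, adjusted p = 0.000194 by limma), was higher. Selenbp2 fell short of the fold threshold when FSH-treated mouse 3 (-0.83) or a saline-treated mouse, 3 (-0.99) or 4 (-0.89), was left out. When FSH-treated mouse 2 was left out, of 17 male-biased genes tested 1 was higher and 5 lower, among the latter Mup20 (-1.11, adjusted p = 0.0008 by limma) and Slco1a1 (-1.52, adjusted p = 0.0447 by limma), both named after their values were seen. Of 18 female-biased genes, 4 were higher and 0 lower (limma, median log2 fold change 0.20), with Cux2, a female-specific repressor in liver (1.94, adjusted p = 0.000111 by limma), and Acot3, a peroxisomal thioesterase (1.68, adjusted p = 6.98e-06 by limma), past both thresholds, and the counts were the same without mouse 2. Of 12 genes of the pathways that set sex bias in liver, 3 were higher and 3 lower (3 and 2 without mouse 2), and Socs2, a growth hormone target that dampens its signal, was past both thresholds (1.33, adjusted p = 0.00017 by limma) beside Cux2.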

How the data were processed

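Whole liver RNA from 5 FSH-treated and 6 saline-treated mice was sequenced from NEBNext Ultra libraries as pairs of 100 bp reads. The authors deposited CPM values per Ensembl gene, unfiltered and scaled only to each library's own total. The submitters' processing notes name the mm10 build, FastQC 0.11.2, Trim Galore 0.3.3, cutadapt, STAR and RSEM. The annotation and the use of strand are not given in the sources used here. CPM divided by the smallest step of a library came out as whole reads within 0.1 for 100% of values.

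Identifiers were named from GENCODE M21 (35555 of 36788). Those averaging 0.5 CPM or more over the 11 libraries (12733) entered limma 3.58.1 (R 4.3.3) as log2(CPM + 0.5), with an intensity trend, two-sided tests and Benjamini-Hochberg adjustment over all of them. Fold changes on this scale understate those of low genes. The study's thresholds, 0.05 for the adjusted p and 1 for the absolute log2 fold change, were used. Single values were tested with an exact permutation test. Alternatives were other pseudocounts (0.1 and 1), filters, scalings, weights, no trend, a replicate block, each library left out, voom, thinned reads and summed paralogs, and, added after the data were seen, edgeR 4.0.16 and DESeq2 1.42.0 on the recovered reads. The limma script was tested on simulated data.

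The members and gene lists were chosen with earlier results of these data known. Besides the 9 members, each list gave the text its genes past both thresholds, or, failing any, up to 3 of smallest p, and likeness gave the 3 genes most like each of 5 members. Libraries were checked for duplicates: the lowest mean chi-square per gene within a group was 11.35. Sequences were read from GRCm38 with the longest annotated coding transcript of each gene. No protein sequences were used here. Some results are not reported here.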

Additional observations from a re-analysis of the deposited data

Results flagged for a closer look

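Within each group, the highest and lowest library of each of the 9 genes were set against the others with Dixon's test, in 18 groups of values. Chance flags about 1 in 20 groups. It marked 5. FSH-treated mouse 2 lay far above the other 4 FSH livers for Cyp4a10 (965 CPM), Cyp4a31 (17.7 CPM), Cyp4v3 (291 CPM) and Cyp4a12a (0.811 CPM, from 11 reads). The 4 flags of this library are not independent, since Cyp4a10 and Cyp4a31 vary together within groups and can share reads. Saline-treated mouse 4 lay above the other saline livers for Cyp4f15 (203 CPM).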

How the results depend on the processing

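Cyp4a10 stayed lower with FSH in all 24 alternatives, with log2 fold changes from -1.05 to -0.71 and adjusted p-values from 0.00198 to 0.09, 17 of them past the threshold. Cyp4a14 stayed lower in all 25, with log2 fold changes from -1.003 to -0.62, with adjusted p-values from 0.00559 to 0.153 and 4 past the threshold. The number of members at an adjusted p under 0.05 was 1 of 7. It became 0 with no filter beyond a read in any library, where more genes were tested and Cyp4a10 had an adjusted p of 0.0639. In that setting 0 of the other Cyp4 genes and 0 of the alcohol and aldehyde genes were called, and 1 of the 20 other PPARα targets was lower. It became 2 with median-of-ratios scaling and with array weights, where Cyp4a14 passed (0.0468 and 0.0191), for which the cause was not tested. With 1 library left out it ranged from 0 to 2, and the number past both thresholds, 0 with all libraries, ranged from 0 to 2, reaching 2 without FSH-treated mouse 2. Over all genes the count at an adjusted p under 0.05 ranged from 803 to 1659 with 1 library left out. Cyp4a32 turned slightly higher on the recovered reads in edgeR (0.0741) and in DESeq2 (0.0805), and its log2 fold change ranged from -0.36 to 0.17 with 1 library left out.

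The replicate number as a block also takes saline-treated mouse 5, which has no partner, out of the comparison. In that fit 2 members were called, Cyp4a10 (adjusted p = 0.0405 by limma) and Cyp4a14 (0.0374), where leaving out this mouse alone gave 0.0532 and 0.0665. Of the other Cyp4 genes 0 were called with the block, and so neither Cyp4f16 nor Cyp4b1. The groups share only numbers: correlations between same-numbered libraries ran from -0.07 to 0.36, and 1 of 5 correlated best with its own number.

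Depth did not limit the abundant members, but Cyp4a12a and Cyp4a12b, at up to 11 reads a library, fell below the filter, and with no filter neither passed.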
